A study of Homo sapiens with 6 samples.

Results

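Ubiquitin is attached to proteins by a relay of enzymes and removed by deubiquitinases, and the genes of this relay were compared between prostate cancer cells with and without overexpressed TFEB. The members are the protein-coding genes of the deposited table whose symbols begin with UBE2 (ubiquitin-conjugating enzymes, E2), CUL (cullins), FBXL, FBXO or FBXW (F-box proteins), UBE3 (a family of HECT-type ligases), TRIM (tripartite motif proteins) or USP (ubiquitin-specific proteases), each followed by a number or, for UBE2 and UBE3, by the rest of the name. By this rule 139 of the 10542 listed genes were members, namely 42 USP, 24 UBE2, 24 TRIM, 22 FBXO, 10 FBXL, 8 CUL, 6 FBXW and 3 UBE3 genes. One symbol of the pattern, USP6NL, belongs to a GTPase-activating protein and not to a protease, and it was kept as the rule demands. DU145 is an established human line from a metastasis of a prostate carcinoma. DU145-TFEB cells had been transduced with a lentivirus carrying TFEB and DU145-vector cells with the blank vector, and both were selected with puromycin as stable lines, so selection and transduction are shared by the groups. Replicates 1 to 3 are labelled in each group, giving n = 3 DU145-TFEB and n = 3 DU145-vector polyA RNA libraries. The promoter driving TFEB, and whether the lines were clones or the libraries separate cultures, are not given in the sources used here, so p-values measure the spread between these libraries, which may be technical.

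Ubiquitin is first activated by an E1 enzyme and passed to an E2 enzyme, and an E3 ligase then brings the charged E2 to a substrate. Cullins are the scaffolds of the largest group of E3 ligases, and F-box proteins are the substrate receptors of the CUL1 scaffold. HECT ligases carry the ubiquitin themselves, TRIM proteins mostly use a RING finger to recruit the E2, and USP enzymes cut ubiquitin off again. TFEB is a transcription factor that switches on lysosomal and autophagy genes, which serve the other main route by which cells degrade proteins.

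Values are normalized counts, which are read counts divided by 1 size factor per library. The libraries held 13999961 to 16511477 reads on the listed genes. Each listed gene had an adjusted p-value below 0.05 in the authors' own comparison of these libraries, so the table is a selection, and significance of a member within it is not independent evidence. TFEB itself was 49.6-fold higher in DU145-TFEB, at 6221 ± 160.5 against 125 ± 1.82 normalized counts (SD, n = 3 per group), with no overlap between the groups. The epithelial keratins KRT8, KRT18 and KRT19 were abundant in all 6 libraries and lower in DU145-TFEB (log2 fold changes -0.68 in KRT8, -0.78 in KRT18 and -0.38 in KRT19), and EPCAM, CDH1, KLK3, PTPRC, COL1A1 and PECAM1 were not analysed here. DU145-TFEB replicate 2 stood farthest from its group, with a chi-square per gene of 14.1 and 27.2 against the other DU145-TFEB libraries, compared with 5.26 between those. DU145-vector replicate 2 also stood apart from its group, at 10.3 and 11.3 against the other DU145-vector libraries, compared with 2.97 between those. Counts of calls are therefore also given without either of these libraries. Whether fewer cells of a kind or less RNA per cell lies behind a lower value cannot be told apart in bulk RNA.

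Most of the ubiquitin genes were lower in DU145-TFEB. Of the 139 members 89 were lower and 50 were higher, and the median log2 fold change was -0.69, a measure of DU145-TFEB over DU145-vector in which negative values are lower in DU145-TFEB. The 42 USP genes had the lowest class median, -1.14, with 32 lower and 10 higher, followed by the 8 cullins at -0.92, with 6 lower and 2 higher. The medians of the other classes were -0.59 for FBXL, -0.54 for UBE2, -0.41 for FBXO, -0.41 for UBE3, -0.33 for TRIM and -0.13 for FBXW genes. TRIM63 and 20 genes led by USP37 passed both cutoffs, which were an adjusted p below 0.05 and a log2 fold change beyond 1.5 in either direction. The genes past the cutoffs in the lower direction were 12 USP, 4 TRIM, 2 FBXO, 1 UBE2 and 1 UBE3 gene.

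The test was limma on log2(normalized count + 1) over all 10542 listed genes with Benjamini-Hochberg adjustment. All 139 members had an adjusted p below 0.05, as had 52.4% of listed genes in the lower and 47.6% in the higher direction. The 3 libraries of one group lay apart from the 3 of the other for all 139 members, and for 99.3% of listed genes, which follows from how the table was selected. The same limit holds wherever the groups of a single gene are said not to overlap. The 20 members called lower were 14.4% of the members, against 16.5% of listed genes called lower, and the 1 member called higher stands against 2.54% of listed genes. Without DU145-TFEB replicate 2, 14 of the 20 calls in the lower direction were kept, or 10.1% of members, where 12.2% of listed genes were called lower. Without DU145-vector replicate 2, 16 were kept, or 11.5% of members, where 14.8% of listed genes were called lower. The median of all listed genes was -0.36 on the deposited scaling, -0.11 with DESeq2 and -0.03 with quantile normalization. Relative to the listed genes, the members' median was -0.34, that of the USP genes -0.78, that of the cullins -0.56 and that of the TRIM genes 0.02.

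The direction of a member followed the GC content of its transcripts closely, taken as the median over the transcripts of a gene. All 37 members with a GC content under 42% were lower and all 39 members over 52% were higher, while of the 63 members between these values 11 were higher and 52 lower. The limits of 42% and 52% have no stated origin outside these data. Higher members began at 44.3% and lower members ended at 51.7%, so the clean split outside the limits is a description and not a test. The median GC content was 57.9% for the 50 higher members, 42.8% for the 89 lower ones and 40.4% for the 20 called lower. Across the members, which are not independent replicates, fold changes had a rank correlation (Spearman) of 0.811 with GC content (n = 139) and of -0.542 with gene length. Across all listed genes with a GC value these were 0.733 (n = 10537) and -0.340, so the trend was not one of ubiquitin genes alone. The points share libraries and depth, and no p is given for them.

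The same groups of members were also read in each library, which is no independent support, as the libraries are the same. Among members under 42% GC, the median log2 deviation from the DU145-vector mean was -1.29, -1.40 and -1.15 in DU145-TFEB replicates 1 to 3. Among members over 52% GC it was 0.46, 0.61 and 0.40 in the same libraries. DU145-vector libraries lay between -0.09 and 0.12 in both groups of genes, so DU145-TFEB replicate 2 deviated most in either direction.

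**Figure D1:**
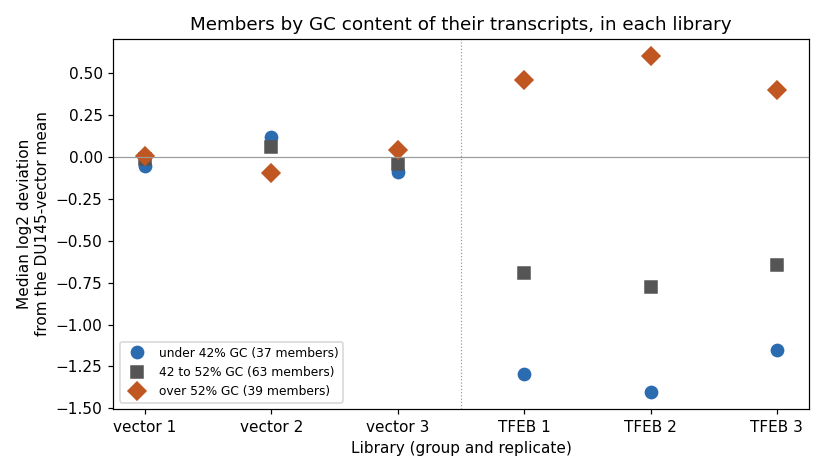
Median log2 deviation of members from the mean of the DU145-vector libraries (vertical axis) in each of the 6 libraries (horizontal axis), with members grouped by the GC content of their transcripts. Members under 42% GC lie between -1.40 and -1.15 in the DU145-TFEB libraries and members over 52% GC between 0.40 and 0.61.

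When the trend of each library against GC content and length was removed by loess, 1 member was called lower and 3 were called higher. In that fit 2.9% of 10537 listed genes were called lower and 2.17% higher. Of the 139 members 66 changed sign, 48 of them from lower to higher, and 68 no longer had an adjusted p below 0.05. An adjusted p below 0.05 was left in 71 of 139 members and in 6452 of 10537 listed genes. The share above 0 went from 36.0% to 57.6% in members and from 47.6% to 52.7% in listed genes. Sign changes were not counted over all listed genes. The members' median became 0.06 and that of the listed genes 0.03. A change that is the same for all genes of like GC content and length is removed by this step whether it arose in the cells or in the libraries, and which of these holds was not tested. The values printed below as "with the trend removed" or "after removal" come from this fit. Where the libraries of a gene are given as 3 values against 3, those of DU145-TFEB replicates 1 to 3 come first and those of DU145-vector replicates 1 to 3 second.

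**Figure D2:**
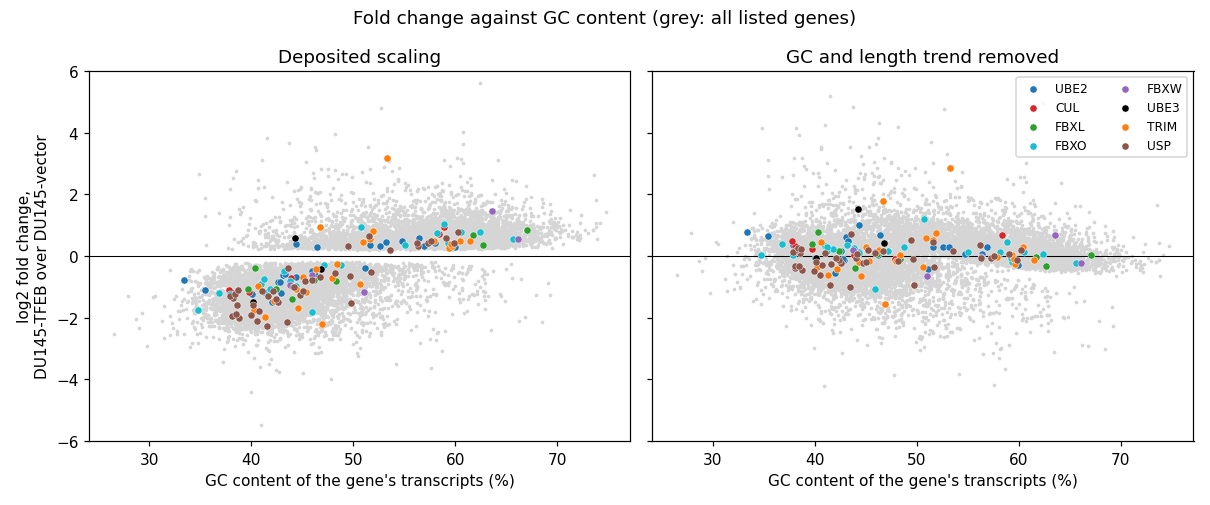
Log2 fold change of DU145-TFEB over DU145-vector (vertical axis) against the GC content of the transcripts in percent (horizontal axis), on the deposited scaling (left) and with the GC and length trend removed (right). Grey points are all listed genes and coloured points the members by class. On the left members under 42% GC are all below 0 and members over 52% all above it, while Spearman's rho for the members is 0.811 on the left and -0.03 on the right.

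**Figure D3:**
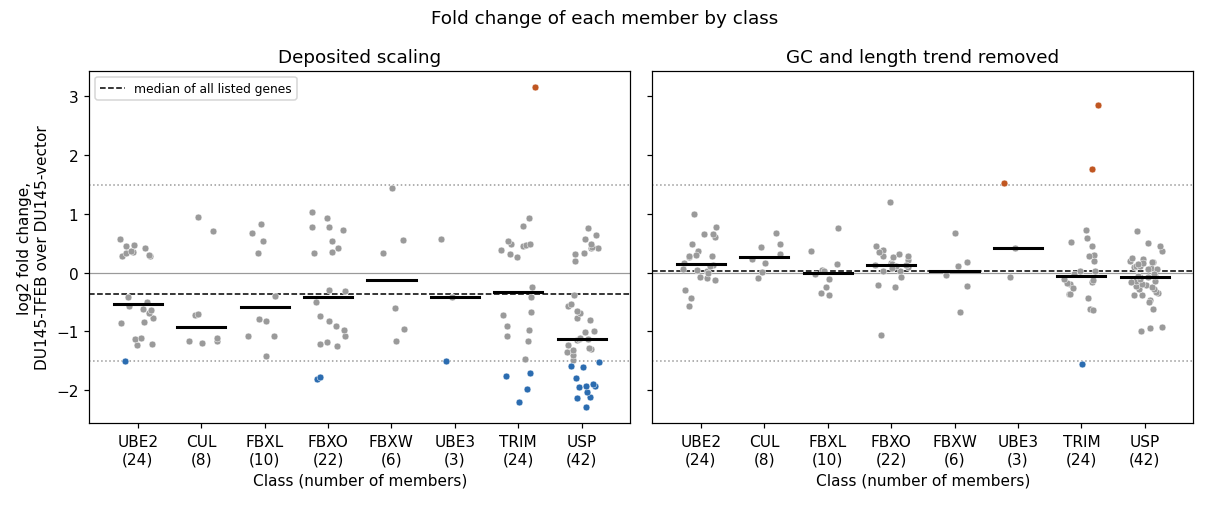
Log2 fold change of each member (points) by class, on the deposited scaling (left) and with the GC and length trend removed (right). Black bars are class medians, the dashed line is the median of all listed genes, dotted lines are the cutoffs of -1.5 and 1.5, and coloured points passed both cutoffs. The USP median is -1.14 on the left and -0.07 on the right, and TRIM63 is the highest point in both.

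Among the E2 conjugating enzymes 14 of 24 fell and 10 rose. The largest decreases were in UBE2Q2, in UBE2J1, an E2 of the endoplasmic reticulum membrane that serves the disposal of misfolded proteins, and in UBE2N, which builds lysine-63-linked chains with UBE2V1 or UBE2V2. UBE2Q2 had 377, 328 and 489 normalized counts in DU145-TFEB replicates 1 to 3 and 1078, 1204 and 1068 in those of DU145-vector. It was 2.81-fold lower (log2 fold change -1.50, SE 0.14, adjusted p = 1.17e-05 by limma) and the only E2 gene past both cutoffs, just inside the 1.5 limit. As the only call it makes up 4.17% of the E2 genes, against 16.5% of listed genes called lower. Leaving out DU145-TFEB replicate 1, DU145-TFEB replicate 2 or DU145-vector replicate 2 ended this call, as did DESeq2, its size factors over the listed genes, edgeR, quantile normalization and a pseudocount of 5. UBE2J1 was 2.34-fold lower and UBE2N 2.32-fold lower, with log2 fold changes of -1.22 and -1.21. UBE2V2, the partner of UBE2N, had a log2 fold change of -1.13, and UBE2V1, whose exons overlap a readthrough gene so that its counts are uncertain, one of -0.69. Both lay above 0 after removal of the trend, at 0.37 (adjusted p = 0.0136) and 0.14 (adjusted p = 0.502).

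The E2 genes that rose most were UBE2L6, UBE2M and UBE2D4. UBE2L6, the E2 for the interferon-induced modifier ISG15, had 1675, 1801 and 1627 normalized counts in DU145-TFEB and 1309.5, 1018 and 1136 in DU145-vector. UBE2M, the E2 for NEDD8, whose attachment activates cullins, had 3065, 3684 and 2806 against 2254, 2049 and 2584. These are increases of 1.47-fold and 1.39-fold (log2 fold changes 0.56 and 0.47, limma adjusted p = 0.000508 and 0.00347), and in neither gene did the groups overlap. Per kilobase of gene length, UBE2M was the most abundant E2, at a mean of 1497 normalized counts per kilobase over the 6 libraries. After removal of the trend, 12 of the 24 E2 genes were significantly higher and 3 lower, where 33.4% of listed genes were significantly higher and 27.8% lower. The values were then 0.058 in UBE2L6, 0.050 in UBE2M, -0.069 in UBE2J1, -0.13 in UBE2N and -0.56 in UBE2Q2, and the largest increase among E2 genes was 1.00 in UBE2E2 (adjusted p = 4.53e-06).

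The UBE2D family, a group of broadly used and closely similar E2 enzymes, shows how the direction of change and base composition went together. UBE2D1 had 233, 232 and 281 normalized counts in DU145-TFEB replicates 1 to 3 and 430.3, 435 and 401 in those of DU145-vector. UBE2D4 had 236, 243 and 239.9 normalized counts in DU145-TFEB replicates 1 to 3 and 175, 176 and 173 in those of DU145-vector. In each the groups did not overlap, with UBE2D1 lower and UBE2D4 higher in DU145-TFEB (log2 fold changes -0.77 and 0.45). UBE2D3 had a log2 fold change of -0.63. The coding sequences of UBE2D1 and UBE2D4 in GENCODE 29 (GRCh38) both have 441 bases, of which 77.6% are identical, and 82 of the 99 differing bases lie at the last position of a codon. Their first 150 bases are shown with the differing bases in capitals. This stretch holds 34 of the 99 differences, with G or C in UBE2D1 at some and in UBE2D4 at others. The counts over the whole coding sequence are given after the bases.
UBE2D1 (chr10:58335202-58368762, plus strand): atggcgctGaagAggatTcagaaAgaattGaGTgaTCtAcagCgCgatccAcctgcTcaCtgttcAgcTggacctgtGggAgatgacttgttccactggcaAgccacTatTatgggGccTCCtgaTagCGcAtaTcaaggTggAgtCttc
UBE2D4 (chr7:43926533-43952692, plus strand): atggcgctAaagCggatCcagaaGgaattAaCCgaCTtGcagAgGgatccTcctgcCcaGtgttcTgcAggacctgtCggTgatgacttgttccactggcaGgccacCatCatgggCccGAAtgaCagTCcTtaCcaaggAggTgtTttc
The coordinates span all 7 coding exons of each gene. Of the 99 differing positions of the whole coding sequence, 22 held G or C in UBE2D1 and 69 in UBE2D4. Last codon positions were 30.6% G or C in UBE2D1 and 61.2% in UBE2D4. The median GC content over all transcripts of each gene was 33.4% and 53.2%. With the trend removed both were higher in DU145-TFEB, by 0.77 (adjusted p = 0.000193) and 0.29 (adjusted p = 0.0265) on the log2 scale, and UBE2D3 by 0.61. UBE2D4 shares exon bases with POLR2J4, so its counts are uncertain.

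**Figure D4:**
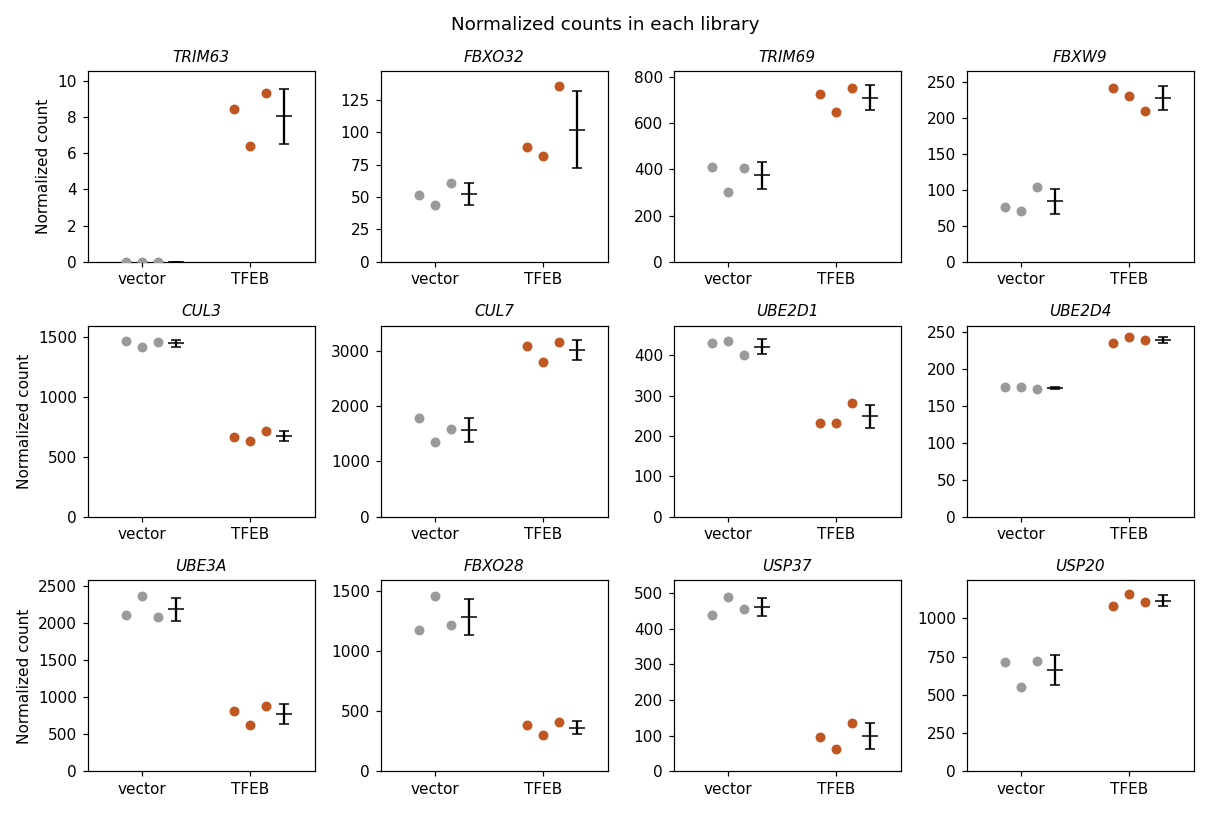
Normalized counts (vertical axes, from 0) of 12 members in the 3 DU145-vector libraries (grey) and the 3 DU145-TFEB libraries (orange). Points are libraries in replicate order, and bars beside them show the mean and SD (n = 3). In all 12 genes the groups lie apart, as in 99.3% of listed genes, with CUL3, UBE2D1, UBE3A, FBXO28 and USP37 lower in DU145-TFEB and the others higher.

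Of the 8 cullins, the 6 that scaffold the classical cullin-RING ligases fell and the 2 large atypical ones rose. CUL3, which uses BTB proteins as receptors, had 666, 631 and 717 normalized counts in DU145-TFEB replicates 1 to 3 and 1470.3, 1415 and 1460 in those of DU145-vector. CUL2 and CUL5, the scaffolds for VHL-type and SOCS-type receptors, were lower by a similar fold. CUL2 had 482, 465 and 615 against 1134, 1257 and 1159 normalized counts, and CUL5 622, 545 and 754 against 1375, 1606 and 1323, so the lowest DU145-vector library of each gene was above its highest DU145-TFEB library. The folds were 2.27 for CUL2, 2.24 for CUL5, 2.22 for CUL4B and 2.16 for CUL3 in the lower direction (log2 fold changes -1.19, -1.17, -1.16 and -1.11, limma adjusted p from 4.34e-06 to 4.02e-05). CUL4A and CUL1, the scaffold of F-box proteins, fell less, by 0.72 and 0.70 on the log2 scale.

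CUL7 and CUL9, which are related, larger proteins, rose. CUL7 had 3082, 2805 and 3158 normalized counts in DU145-TFEB replicates 1 to 3 and 1783, 1349.8 and 1580 in those of DU145-vector. CUL9 had 2036, 1989 and 2034 against 1286, 1140.1 and 1267. These are 1.92-fold and 1.64-fold increases (log2 fold changes 0.95 and 0.72, limma adjusted p = 2.8e-05 and 2.13e-05). No cullin passed the fold-change cutoff. The transcripts of CUL7 and CUL9 had GC contents of 58.9% and 58.4%, and those of the other cullins 37.8% to 47.9%. With the trend removed, 0.67 in CUL9, 0.50 in CUL3, 0.44 in CUL7, 0.32 in CUL5 and 0.23 in CUL4B were higher in DU145-TFEB with adjusted p from 1.25e-05 to 0.0182, and 0.17 in CUL2, 0.014 in CUL1 and -0.090 in CUL4A had adjusted p-values of 0.0854, 0.858 and 0.25. The direction of CUL3, CUL5 and CUL4B thus depended on whether the trend was removed. CUL7 shares exon bases with KLC4 and CUL4A with PCID2, and strand use in counting is not given in the sources used here.

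The 38 F-box genes, which code for substrate receptors, divided into 22 that fell and 16 that rose. FBXO28 and FBXO30 were the 2 past both cutoffs, or 9.09% of the FBXO genes, against 16.5% of listed genes called lower. FBXO28 had 383, 301 and 407 normalized counts in DU145-TFEB replicates 1 to 3 and 1170.3, 1451 and 1217 in those of DU145-vector, a 3.52-fold decrease (log2 fold change -1.82, SE 0.13, adjusted p = 4.41e-06 by limma). FBXO30 had 236, 197 and 266 against 694, 971 and 732, with a log2 fold change of -1.77. Once the trend was removed, FBXO28 kept a log2 fold change of -1.07 (adjusted p = 4.87e-06) and FBXO30 had one of 0.037 (adjusted p = 0.796), with transcript GC contents of 45.9% and 34.8%. Neither was called with quantile normalization.

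Other F-box genes that fell were FBXO5, FBXL4, FBXL17, FBXW2, FBXW7 and FBXW11. FBXO5, also called EMI1, an inhibitor of the anaphase-promoting complex, fell 2.39-fold (log2 fold change -1.24). FBXL4 and FBXL17 had log2 fold changes of -1.08 and -1.07. FBXW2 fell 2.22-fold, FBXW7, the receptor for cyclin E and MYC, 1.93-fold, and FBXW11, a receptor for beta-catenin and IκB, 1.52-fold. With the trend removed FBXW2 stayed lower at -0.67 (adjusted p = 9.39e-06), and 0.19 in FBXW7, 0.11 in FBXW11, 0.031 in FBXO5 and 0.15 in FBXL17 had adjusted p-values from 0.147 to 0.824. FBXL4 and FBXL5, the iron-sensing receptor for IRP2, had values of 0.37 and 0.77 with the trend removed, after -1.08 and -0.39 without.

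F-box genes that rose did so by less than the 1.5 cutoff. FBXW9 rose most, with 242, 231 and 209.7 normalized counts in DU145-TFEB replicates 1 to 3 and 76.5, 71.2 and 104 in those of DU145-vector. Its 2.71-fold increase (log2 fold change 1.45, limma adjusted p = 4.23e-05) passed the cutoff with DESeq2, edgeR and quantile normalization, and was 0.67 with the trend removed. FBXO32, or atrogin-1, a ligase receptor known for muscle wasting, had 88.4, 81.9 and 136 normalized counts in DU145-TFEB replicates 1 to 3 and 52, 43.9 and 61 in those of DU145-vector. The groups did not overlap, DU145-TFEB replicate 3 was the highest, and the log2 fold change was 0.93 (SE 0.23, adjusted p = 0.00353 by limma), or 1.20 with the trend removed (adjusted p = 0.000473).

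FBXO2, FBXO44 and FBXO6, neighbours within 37.3 kb of chromosome 1, rose together. FBXO2, a receptor for glycoproteins that is also linked to damaged lysosomes, rose 1.45-fold, FBXO44 1.71-fold and FBXO6 1.66-fold. FBXO2 and FBXO44 share exon bases, so part of their counts may be of the same reads. After removal of the trend their values were -0.24 in FBXO2, 0.13 in FBXO44 and 0.13 in FBXO6, of which FBXO2 had an adjusted p below 0.05 (0.0183). FBXW5 rose 1.48-fold and was the most abundant F-box gene per kilobase, at 738 normalized counts per kilobase, and it had -0.23 with the trend removed. FBXL8, FBXL15, FBXL19, FBXW4 and FBXO46 had log2 fold changes of 0.84, 0.68, 0.53, 0.34 and 0.78, and of 0.024, -0.028, -0.24, -0.044 and 0.077 with the trend removed.

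The 3 UBE3 genes moved differently. UBE3A, or E6AP, the HECT ligase lost in Angelman syndrome, had 813, 627 and 881 normalized counts in DU145-TFEB replicates 1 to 3 and 2110.4, 2364 and 2082 in those of DU145-vector. It fell 2.83-fold (log2 fold change -1.51, limma adjusted p = 6.64e-06) and passed the cutoff narrowly, a call that ended without DU145-TFEB replicate 2 or DU145-vector replicate 2. It was not called with DESeq2, its size factors over the listed genes, edgeR or quantile normalization either. UBE3A is overlapped by SNHG14, which lies on the opposite strand, so its counts are uncertain. UBE3C, a ligase found on the proteasome, had 3615, 3619 and 3576 normalized counts in DU145-TFEB and 4809.8, 4823 and 4725 in DU145-vector, a decrease of 1.33-fold. UBE3D, which is built unlike the other HECT ligases, had 115, 143 and 116 against 72.5, 89.7 and 87, an increase of 1.5-fold. With the trend removed UBE3A had -0.080 (adjusted p = 0.417), UBE3C 0.41 (adjusted p = 0.000737) and UBE3D 1.53 (adjusted p = 2.56e-05), which passed the cutoff.

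TRIM genes held both the highest and some of the lowest values. TRIM63, or MuRF1, a RING ligase of striated muscle known for the breakdown of myosin, was read in DU145-TFEB alone. It had 8, 7 and 9 reads in DU145-TFEB replicates 1 to 3 and 0 reads in each DU145-vector library. Against a floor of 3 reads over the DU145-vector group this is at least 8.17-fold higher, and the fitted log2 fold change of 3.16 (limma adjusted p = 0.00013) depends on the pseudocount. With a pseudocount of 5 it was not called, and the reads are few. The TRIM median was -0.33 also with TRIM63 at its bound.

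Because TRIM63 was the member with the highest fold change, the 250 bases before its RefSeq start site (GRCh38.p14, chr1:26067631-26067880, minus strand) were searched on both strands for CACGTG, the E-box that TFEB is known to bind, and for TCATGTGA, an M-box-type string bound by MITF, the relative of TFEB. The window holds no CACGTG and 1 TCATGTGA, in capitals.
TRIM63: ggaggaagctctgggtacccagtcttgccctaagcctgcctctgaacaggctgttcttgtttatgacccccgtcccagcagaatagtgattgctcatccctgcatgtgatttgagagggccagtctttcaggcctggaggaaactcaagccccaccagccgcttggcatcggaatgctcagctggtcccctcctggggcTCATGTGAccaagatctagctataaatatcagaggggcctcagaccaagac
The string begins 51 bases before the start site. TCATGTGA or its reverse complement TCACATGA occurs in 1.00% of all 35116 RefSeq promoter windows of 300 bases. Of the 109 members with a window 4 hold it, namely TRIM63 and FBXO10, which rose, and TRIM38 and USP54, with log2 fold changes of -0.97 and -0.65. That is 4 of the 169 windows of members, or 2.37%. Neither string contains the other, and a match is a description of letters and not of binding.

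Among TRIM genes that fell, TRIM36, TRIM33, TRIM59 and TRIM24 passed both cutoffs. These are 16.7% of the TRIM genes, close to the 16.5% of listed genes called lower. TRIM33 and TRIM24 are transcriptional cofactors of the TIF1 family. TRIM33 had 279, 156 and 325 normalized counts in DU145-TFEB replicates 1 to 3 and 948, 1035 and 899 in those of DU145-vector. DU145-TFEB replicate 2 was the lowest, and the 3.79-fold decrease had a log2 fold change of -1.98 (SE 0.23, adjusted p = 3.93e-05 by limma). TRIM24 had 189, 156 and 227 against 591, 676 and 586, and TRIM59 136, 105 and 156 against 429, 489 and 416, with log2 fold changes of -1.70 and -1.76. TRIM36, outside the rule for named genes and named as the 1 member still called lower with the trend removed, had 24.2, 12.7 and 18.7 against 86.3, 97.5 and 75, with -2.19 before and -1.55 after removal (adjusted p = 0.000184). TRIM24, TRIM33 and TRIM59 were also lower after removal, at -0.64, -0.61 and -0.36 with adjusted p = 0.000111, 0.00142 and 0.00688. The call of TRIM24 was lost with DESeq2, its size factors over the listed genes and quantile normalization, that of TRIM59 with quantile normalization, and TRIM36 did not pass the minimum mean of 100. TRIM59 shares exon bases with SMC4.

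TRIM28, or KAP1, another TIF1 relative and a partner of zinc finger repressors, was the most abundant member per kilobase, at 1850.4 normalized counts per kilobase. It had 8077, 9209 and 7648 normalized counts in DU145-TFEB replicates 1 to 3 and 6609, 6168 and 7075 in those of DU145-vector, an increase of 1.26-fold, but -0.27 with the trend removed (adjusted p = 0.00354). TRIM69 had 729, 649.7 and 754 normalized counts in DU145-TFEB replicates 1 to 3 and 413, 304 and 405 in those of DU145-vector. It rose 1.9-fold (log2 fold change 0.94, limma adjusted p = 0.000129), and by 1.77 with the trend removed, past the cutoff (adjusted p = 1.53e-06). TRIM45 rose by 0.79 and by 0.73 with the trend removed. TRIM16, which takes part in the autophagy of damaged lysosomes, rose 1.38-fold and its near copy TRIM16L 1.47-fold, with 0.59 and 0.52 after removal. Reads may be split between TRIM16 and TRIM16L, so the values of either are uncertain.

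Of the 42 USP genes, the class with most members, 12 were called lower, or 28.6%, against 16.5% of listed genes and 1 of the 3 UBE3 genes. USP37, which stabilizes cyclin A, had 97.9, 61.9 and 135 normalized counts in DU145-TFEB replicates 1 to 3 and 438, 489 and 456 in those of DU145-vector. USP24 had 387, 264 and 484 against 1561, 1675 and 1621. USP34, a regulator of axin, had 639, 350.3 and 778 against 2343, 2649.9 and 2308. In all of these the DU145-vector libraries were close together and DU145-TFEB replicate 2 was the lowest library. The folds were 4.69, 4.28 and 4.13 in the lower direction (log2 fold changes -2.29 ± 0.24, -2.14 ± 0.18 and -2.12 ± 0.24, standard errors, limma adjusted p = 2.17e-05, 7.93e-06 and 3.33e-05).

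The other USP genes called lower were -2.03 in USP9X, -1.95 in USP53, -1.94 in USP47, -1.92 in USP25, -1.80 in USP8, -1.60 in USP38, -1.59 in USP15 and -1.52 in USP49 on the log2 scale, and USP9Y, the paralog of USP9X, whose reads may be shared with it. USP8 acts on endosomal cargo, and USP15 is a relative of USP11. Just outside the cutoff lay USP48 at -1.49 and, among TRIM genes, TRIM23 at -1.47. Without DU145-TFEB replicate 2 the calls of USP38, USP15, USP49 and USP9Y were lost, without DU145-vector replicate 2 those of USP15 and USP49, and without DU145-TFEB replicate 1 that of USP49. With quantile normalization the calls of USP8, USP9Y, USP38, USP15 and USP49 were lost, with DESeq2 or its size factors over the listed genes those of USP38, USP15 and USP49, and with edgeR or a pseudocount of 5 that of USP49. Once the trend was removed no USP gene passed the cutoff, but USP24, USP37 and USP49 were still lower, by 1.00, 0.94 and 0.93 on the log2 scale (adjusted p = 2.97e-06, 0.000171 and 1.68e-05), and 12 USP genes in all were significantly lower and 6 higher, against 27.8% and 33.4% of listed genes. Of the others called lower on the deposited scaling, USP9Y apart, the values were then -0.62 in USP34, -0.50 in USP25, -0.46 in USP9X, -0.38 in USP53, -0.34 in USP47, -0.28 in USP8, -0.20 in USP38 and 0.092 in USP15.

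USP genes with well-known functions also fell. USP7, the protease of MDM2 and p53, had 1242, 1402 and 1440.2 normalized counts in DU145-TFEB and 2696, 2773 and 2685 in DU145-vector. USP14, which sits on the proteasome, had 2452, 2373 and 2445 against 5480.2, 5627 and 4897, and USP1, which acts on FANCD2 and PCNA, 749, 749 and 757 against 1744, 2234 and 1641. Their folds were 2, 2.2 and 2.49 in the lower direction, and 0.055 in USP7, 0.088 in USP14 and -0.28 in USP1 on the log2 scale with the trend removed. These 3 were named for their functions after their values were seen.

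The 10 USP genes that rose did so by less than 2-fold. USP20, which acts in the VHL pathway, had 1084, 1158 and 1107 normalized counts in DU145-TFEB replicates 1 to 3 and 717, 552 and 721 in those of DU145-vector, an increase of 1.68-fold (log2 fold change 0.76, limma adjusted p = 0.000172). USP18, which removes ISG15, had 1165, 1231 and 1258 against 797, 773 and 763, 1.57-fold higher, and USP19, anchored in the endoplasmic reticulum, 2800.0, 2989 and 2702 against 1920.2, 1726 and 2069, 1.49-fold higher. USP18 and the ISG15 E2 enzyme UBE2L6 thus both rose, with 0.45 (adjusted p = 0.000164) and 0.058 (adjusted p = 0.507) once the trend was removed. USP22, the deubiquitinase of the SAGA coactivator and the most abundant USP gene per kilobase at 1144 normalized counts per kilobase, rose 1.15-fold. USP20, USP19 and USP22 had 0.18, 0.055 and 0.14 with the trend removed (adjusted p = 0.0831, 0.458 and 0.0588).

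Close relatives went opposite ways in 12 of 25 paralog groups. Of 42 groups of paralogs written down for these families, 25 had at least 2 listed members, and in 12 the listed members differed in sign. As 36.0% of all members were higher and 64.0% lower, mixed signs would be common in any grouping of members. No comparison with groups of unrelated members was made, so the count is not a trait of paralogs. USP20 rose while its paralog USP33 fell by 1.22 on the log2 scale, and with the trend removed both were above 0, at 0.18 and 0.26. USP5, which binds unanchored ubiquitin, and its paralog USP13 had 0.43 and -0.78, and -0.058 and 0.11 with the trend removed. USP11 and USP15 had 0.32 and -1.59, and -0.060 and 0.092. The nucleolar USP36 and its paralog USP42 kept opposite signs, at 0.41 and -0.53 before and 0.37 and -0.37 after removal.

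The same was seen among E2 enzymes and F-box proteins. UBE2Q1 and UBE2Q2 kept opposite signs, at 0.35 and -1.50 before and 0.30 and -0.56 after removal. UBE2L3, which serves HECT and RBR ligases, had -0.41 against 0.56 in UBE2L6, and -0.42 against 0.058. UBE2E1 had -0.85 while UBE2E2 and UBE2E3 had 0.37 and 0.28, and the 3 had -0.090, 1.00 and 0.66 after removal. UBE2J1 and UBE2J2 had -1.22 and 0.29, then -0.069 and -0.30. FBXO10 and FBXO11 had 0.35 and -1.21, then 0.11 and 0.38. FBXO32 and FBXO25 had 0.93 and -0.98, then 1.20 and 0.10.

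**Figure D5:**
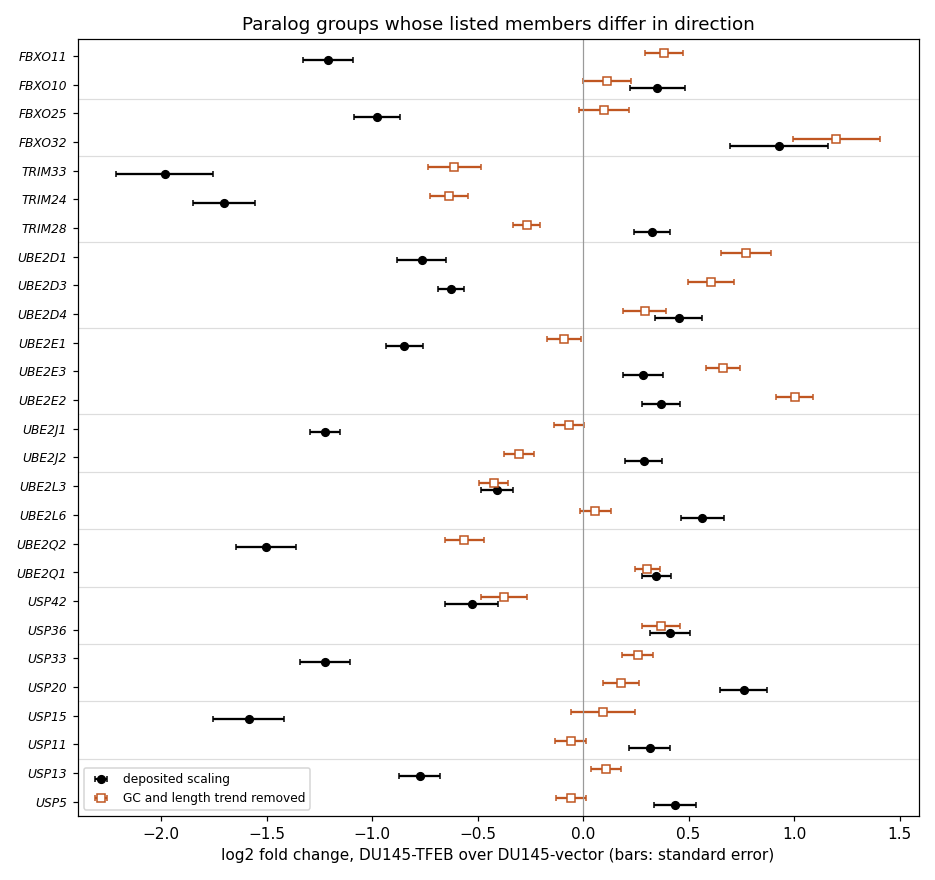
Log2 fold change of DU145-TFEB over DU145-vector (horizontal axis, bars are standard errors) in the 12 paralog groups whose listed members differ in sign, separated by grey lines. Filled circles are on the deposited scaling and open squares have the GC and length trend removed. UBE2D1 moves from -0.77 to 0.77 while UBE2Q2 is below 0 in both.

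The E-box CACGTG, which reads the same on both strands, was looked for in the promoters of the members, since TFEB was the factor overexpressed. RefSeq windows from 250 bases before to 50 after a start site were matched by symbol or gene identifier for 109 of the 139 members, some with several start sites. CACGTG was in 13 of the 169 windows of members, or 7.69%, and in 7.26% of all 35116 windows. By gene, 4 of 37 matched members that rose held it and 8 of 72 that fell. Some of these matches are shown to let both directions be compared, with the motif in capitals (GRCh38.p14).
FBXL19 (chr16:30924438-30924467, plus strand): tggctcccgggaCACGTGtgaggtgggttc
FBXW4 (chr10:101695334-101695363, minus strand): tgaaaccggcctCACGTGtttgcagcgcga
USP36 (chr17:78840824-78840853, minus strand): gcgtcgcggtgaCACGTGtgtgaggcgccg
USP32 (chr17:60392118-60392147, minus strand): gggcggaagagtCACGTGatccggcatgga
FBXL5 (chr4:15655460-15655489, minus strand): cgcgcgcccggtCACGTGggccgcagggat
CUL5 (chr11:108008906-108008935, plus strand): ccgccctcgcgtCACGTGacgtggccgcgg
FBXL19, FBXW4 and USP36 rose, by 0.53, 0.34 and 0.41 on the log2 scale. USP32, FBXL5 and CUL5 fell, with log2 fold changes of -1.14, -0.39 and -1.17. After removal of the trend these 6 had -0.24 in FBXL19, -0.044 in FBXW4, 0.37 in USP36, -0.19 in USP32, 0.77 in FBXL5 and 0.32 in CUL5. Members with the motif were thus found in both directions.

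Of the genes of the pathway outside these symbol families more were lower than higher. A list of 206 ubiquitin pathway genes was written by role, and 162 of them were listed, 46 higher and 116 lower, with 35 called lower and 1 called higher. Among all listed genes 52.4% were significantly lower, 16.5% were called lower and 2.54% called higher, which is also the background of the counts by role below. Their median log2 fold change was -0.88, and -0.03 with the trend removed. All 6 UBR ligases, which read the N-terminal residues of proteins, were lower and 4 were called, led by UBR1 at -2.29. Of 18 HECT ligases without the UBE3 name 16 were lower and 6 were called, and NEDD4 changed most, at 709.7 ± 158 in DU145-TFEB against 3392 ± 341 in DU145-vector (mean normalized counts ± SD, n = 3, log2 fold change -2.27, limma adjusted p = 3.27e-06).

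Of the 8 listed E1 enzymes 5 were lower and 3 higher, with the largest change in UBA6 (-1.99), which charges E2 enzymes beside UBA1. Of 9 cullin partners 7 were lower, and CAND1, the exchange factor of cullin receptors, was -1.86. COP9 signalosome genes, whose products take NEDD8 off cullins, were lower in 5 of 8, with COPS2 at -1.15. CUL3 adaptors were lower in 22 of 29, with KLHL15 at -2.04, and CUL4 receptors in 11 of 17, with DCAF17 at -1.86. Of 6 listed precursors of ubiquitin and related modifiers 4 were higher, with a median of 0.34, and of 14 genes of the anaphase-promoting complex 5 were higher and 9 lower. In the remaining roles the largest changes were -2.34 in BIRC6, -2.12 in ANKIB1, -1.72 in CDC27, -1.35 in UFM1 and -1.11 in BTRC. BIRC6 is a giant E2 and inhibitor of apoptosis, ANKIB1 an RBR ligase, CDC27 a subunit of the anaphase-promoting complex, UFM1 a ubiquitin-like modifier and BTRC an F-box protein.

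OTUD7A, a deubiquitinase of the OTU family, was the 1 gene of this list called higher. It had 176, 153 and 170.3 normalized counts in DU145-TFEB replicates 1 to 3 and 31.4, 15.6 and 20 in those of DU145-vector, and the groups did not overlap. Its log2 fold change was 2.90 (SE 0.25, adjusted p = 7.92e-06 by limma), and 3.31 with the trend removed. Of 30 listed deubiquitinases without the USP name, 21 were lower, 9 of these called, and 9 were higher. Removal of the trend brought COPS2 and UFM1 above 0, at 0.48 and 0.15. The other genes named by role then had -0.95 in ANKIB1, -0.85 in BIRC6, -0.80 in UBR1, -0.70 in NEDD4, -0.52 in KLHL15, -0.44 in CDC27, -0.43 in DCAF17, -0.34 in UBA6, -0.27 in BTRC and -0.25 in CAND1.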

How the data were processed

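PolyA RNA was sequenced from 3 libraries of DU145-TFEB and 3 of DU145-vector, with groups and replicate numbers taken from the labels. The columns of the vector libraries carry the name NC and were matched to the vector labels by that group. The submitters' processing notes name CASAVA 1.8, HISAT2 2.1.0, edgeR and the builds GRCh38 and hg38, and the paper's methods name the NEBNext Ultra kit and DESeq2. The counting program, the annotation and the use of strand are not given in the sources used here. The authors deposited a normalized signal, the read count of each gene divided by 1 size factor per library (0.950 to 1.099). In every library 100.0% of values came out as whole reads within 0.05 reads. The deposited log2 fold changes and p-values of the authors were not used other than to find that all 10542 listed genes have an adjusted p-value below 0.05.

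The test was limma 3.58.1 (R 4.3.3), using the trend option and no block, fitted to log2(normalized count + 1) of all listed genes. A gene was called when its p-value, adjusted by Benjamini-Hochberg, was below 0.05 and its log2 fold change was beyond 1.5 in size. The log2(value + 1) scale understates the change of low genes. GC content was the median over a gene's GENCODE 29 transcripts (10537 genes, all 139 members), and gene length came from the deposited table. Loess (span 0.5) took the trend against both out of each library. Recovered reads were given to DESeq2 1.42.0 and to edgeR 4.0.16. Other alternatives were pseudocounts of 0.5 and 5, a minimum mean of 100, size factors over the listed genes, quantile normalization, the replicate block and each library left out. On simulated counts for 10542 genes with 200 changed, limma recovered 200, with 0 unchanged genes called. With a simulated GC trend left in, it recovered 132 and called 561 unchanged genes, and with the trend removed it recovered 200 and called 0. The simulated trend was linear in GC content, equal in all simulated DU145-TFEB libraries and without a length part. Changed genes were drawn without regard to GC content. The simulation therefore checks the steps under these settings only and does not vouch for the trend-removed values of these data.

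Libraries of the same group differed by a chi-square per gene of 2.97 to 27.2, and between groups by 165 to 326. The smallest exact two-sided permutation p with 3 libraries per group is 0.1. Intervals and floors cover counting error only. The members and lists were chosen with earlier results of these data known. Named by rule were all CUL and UBE3 members, in each other class the 3 highest and 3 lowest with a mean of at least 100, members called higher, the most abundant per kilobase in each class, listed genes for lysosome damage, paralogs that differ in sign and the largest change in each role of the pathway list. UBE2V1, UBE2V2, USP1, USP7, USP14, the remaining members called lower or just outside the cutoff, and the genes with a promoter match were named after their values were seen. FBXO27 and UBE2QL1 of the lysosome damage list were not analysed here, and some genes of the rule are not reported here. Promoter windows came from RefSeq (GRCh38.p14).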

Additional observations from a re-analysis of the deposited data

How the results depend on the processing

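Across 80 genes and 11 summary values, the removal of the GC and length trend was the setting that changed results most. With it 1 member was called lower and 3 higher, where 2.9% of listed genes were called lower and 2.17% higher. The medians relative to the listed genes became 0.023 for all members, 0.12 for UBE2, 0.24 for CUL, -0.034 for FBXL, 0.11 for FBXO, 0.0016 for FBXW, 0.38 for UBE3, -0.10 for TRIM and -0.10 for USP genes. The member counts and these medians were the same with the replicate block added. Of the 139 members 66 changed sign, and sign changes were not counted over all listed genes. Of the members named by the rule 29 changed direction, both without and with the block, to 0.17 in CUL2, 0.32 in CUL5, 0.23 in CUL4B, 0.50 in CUL3, 0.014 in CUL1, 0.37 in FBXL4, 0.15 in FBXL17, 0.77 in FBXL5, -0.24 in FBXL19, -0.028 in FBXL15, 0.037 in FBXO30, 0.031 in FBXO5, 0.38 in FBXO11, 0.10 in FBXO25, -0.24 in FBXO2, 0.19 in FBXW7, 0.11 in FBXW11, -0.044 in FBXW4, -0.23 in FBXW5, -0.27 in TRIM28, 0.77 in UBE2D1, 0.61 in UBE2D3, -0.30 in UBE2J2, 0.41 in UBE3C, 0.092 in USP15, 0.26 in USP33, 0.11 in USP13, -0.060 in USP11 and -0.058 in USP5 on the log2 scale. COPS2 and UFM1, named from the pathway list and not members, changed direction too. UBE2V1, UBE2V2, USP7 and USP14, named outside the rule, were among the other members that changed direction. The cause was not tested.

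With quantile normalization 9 members were called lower and 2 higher. The lower calls were 6.47% of members against 7.66% of listed genes, and 563 of 10542 listed genes were called higher. The medians relative to the listed genes were -0.32 for UBE2, -0.74 for CUL, 0.0084 for FBXO, 0.092 for FBXW, -0.41 for UBE3 and 0.082 for TRIM genes. DESeq2, its size factors over the listed genes and edgeR with TMM each called 2 members higher, TRIM63 and FBXW9, and 14, 14 and 17 of the 20 lower calls were kept. In the same order 10.2%, 10.5% and 14.5% of listed genes were called lower, against 10.1%, 10.1% and 12.2% of members. Of the 10542 listed genes 484, 466 and 329 were called higher. The minimum mean of 100 removed TRIM63, so that limma called 0 members higher, and gave medians relative to the listed genes of -0.41 for all members, -0.32 for FBXO and -0.11 for UBE3. With a pseudocount of 5 limma called 0 members higher and TRIM63 remained above 0. Of listed genes 43 of 8617 were called higher with the minimum mean and 114 of 10542 with that pseudocount. The cause was not tested.

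Leaving out single libraries gave 14 to 23 members called lower and 1 to 2 called higher. The lower calls were 10.1% to 16.5% of members, against 12.2% to 19.4% of listed genes. Of the 10542 listed genes 243 to 295 were called higher. The medians relative to the listed genes then ranged from -0.14 to 0.026 for FBXO, from 0.16 to 0.25 for FBXW and from -0.071 to -0.044 for UBE3 genes, and FBXO was above 0 without DU145-vector replicate 1. The USP median ranged from -0.89 to -0.69 and the CUL median from -0.58 to -0.52. The replicate numbers are not stated to mark a shared culture or day, and the deviations of libraries with the same number correlated at -0.059, -0.42 and -0.35. Deviations from the mean of only 3 libraries depend on each other, so these values cannot settle whether a culture or day was shared. With the replicate block 20 members were called lower and 1 higher, against 1743 and 268 of 10542 listed genes. FBXO10 then lost its adjusted p below 0.05, and not every library correlated best with its own number. Depth limits TRIM63, with 0 to 9 reads a library, while every other member had at least 14 reads in each library.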
